A study of Mus musculus with 6 samples.

Results

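Accessible chromatin was described at 7 genes, of 21887 protein-coding genes in all, that B cell precursors use to build and test an antigen receptor: Rag1, Rag2, Dntt, Vpreb1, Vpreb3, Igll1 and Il7r. They were chosen by name, and the ATAC-seq peaks within 1 kb of either end of each gene, and in the gene or up to 50 kb from it, were collected from 6 deposited peak lists on mm10. These peaks merged into 67 regions of the 70174 regions found over all lists. The strength of a peak is its percentile within its own list by −log10 q, the significance the authors' peak caller gave it, where 100 is the strongest peak of that library. Percentiles describe a place within a list, and lists of different lengths do not turn them into a measure of change.

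RAG1 and RAG2 together form the recombinase that cuts DNA at the antigen receptor loci, and terminal deoxynucleotidyl transferase (TdT, encoded by Dntt) adds bases to the cut ends before they are joined. Pro-B and pre-B cells pair a new heavy chain with a surrogate light chain made of the Vpreb1 and Igll1 products, while interleukin-7, read through a receptor whose alpha chain is encoded by Il7r, keeps these precursors alive and dividing. Immature B cells have replaced the surrogate with a true light chain and leave the bone marrow for the spleen, although the recombinase can be used again in receptor editing.

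The cells were splenic immature B cells, defined as B220+CD93+, from Tcrd-GDL mice, in which the γδ T cells are fluorescent and express the receptor for diphtheria toxin, so that the toxin deletes them. In the DTx group (3 libraries) the mice had received diphtheria toxin (DTx) into the peritoneum at 15 ng/g of body weight, as 2 doses with 48 h between them, and the cells came from day 8 counted from dose 1. The untreated group (3 libraries) was of the same strain, and neither an injection of these mice nor their age is given in the labels, so loss of γδ T cells, the toxin itself and the injection cannot be told apart. Nothing in the labels ties the numbered libraries to separate mice, so a p-value here covers the spread between these samples only, and that spread may be technical.

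The DTx lists held 44661, 56266 and 60811 peaks in replicates 1, 2 and 3, against 36760, 42504 and 56503 peaks in the untreated lists. DTx replicate 1 and untreated replicate 3 have the layout of MACS2's narrow mode and the other 4 lists that of its broad mode, so each group holds 1 narrow and 2 broad lists. The numbers of reads are unknown. Of 8 B cell marker genes, a gene-end peak was found throughout at 7. The window from 250 bp before to 50 bp after the start site held a peak throughout at 3 of them, beside 48.4% of all genes matched. Ptprc, which encodes B220, was the only gene of the marker lists called on the number of peaks in and within 50 kb of it, in lists held to equal length. It had 9, 9 and 9 peaks in DTx libraries, against 10, 10 and 10 in untreated libraries (log2 difference -0.14, adjusted p = 0.0057 by limma), and the call was lost in the deposited lists, where the log2 difference was 0.34, with a 100 kb window and with a floor on the variance. T cell markers were called at 1 to 4 of 5 genes in DTx libraries and at 1 to 3 of 5 in untreated libraries, with Cd3e at 0 in every library, Cd3d called in all 6 at percentiles 87.4 to 97.5, and Lck and Cd4 in 4 each. Myeloid markers were called at 2 to 3 of 5 genes in DTx libraries and at 1 to 3 of 5 in untreated libraries, with Lyz2 and Adgre1 at 0 throughout and Itgam and Cd14 in 5 libraries each. Csf1r, a myeloid marker, was called in 1 DTx and 3 untreated libraries, and the share of all genes with such a split was not counted. Progenitor markers, among which Il7r itself was counted, were called at 3 of 4 genes in DTx libraries and at 2 to 3 in untreated libraries, with Kit at 0 and Flt3 and Cd34 in all 6 libraries. Erythroid markers were called at 3 of 4 genes in DTx libraries and at 2 to 3 in untreated libraries, with Gata1 at 0, and with Klf1 (70.2 to 90.5) and Tfrc (88.4 to 96.4) in all 6. Plasmacytoid dendritic cell markers, of which B cells also express Irf8 and Tcf4, were called at 4 of 5 genes in every library, with Ccr9 at 0. The part of other cells in the values below was not tested.

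Of the 7 genes, 4 had a gene-end peak in at least 1 list. Dntt, Vpreb1 and Igll1 had no peak within 1 kb of either end in any library, Rag1 had one in DTx replicate 2 alone, and Rag2 had one in DTx replicate 3 and in untreated replicate 3. Vpreb3 was the only one of the 7 with a gene-end peak in all 6 lists, a state shared by 49.2% of all protein-coding genes, and Il7r followed with 5 lists. A gene-end peak in no list, as at 3 of the 7 genes, was the state of 40.9% of all genes. The numbers of these genes with a gene-end peak were 2, 3 and 3 in the DTx libraries, against 2, 1 and 3 in the untreated libraries (2.67 ± 0.577 against 2 ± 1, SD, n = 3 each). The groups overlapped, and within the broad-mode lists the difference was 1.5 genes while within the narrow-mode lists it was -1. None of the 7 was called in every DTx library and in no untreated library, which 0.0366% of all genes were.

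The 1 kb limit decided part of this picture. At Vpreb1 the nearest peak lay 1241 to 1368 bp from an end of the gene, at Igll1 1258 to 1401 bp and at Dntt 1521 to 1779 bp. The last of these distances, in DTx replicate 1, was to a peak inside Dntt. All 3 genes thus missed the 1 kb limit but lay within 2 kb of a peak. At Vpreb1 that peak belonged to the region over the start site of the neighbouring gene Top3b. With a limit of 2 kb, 5, 6 and 6 of the genes had a peak in the DTx libraries, against 6, 5 and 6 in the untreated libraries. At that limit 5 of the 7 had a peak in all 6 lists and none lacked one throughout, beside 53.1% and 36.5% of all genes. Only a peak over the start site itself bears on the promoter, and the window from 250 bp before to 50 bp after the start held a peak at 1, 3 and 3 of the genes in the DTx libraries, against 1, 0 and 2 in the untreated libraries. In that window 48.4% of the 17492 genes matched had a peak in all 6 lists, and 43.8% had one in no list. None of the 7 was in the first state, and Dntt, Vpreb1 and Igll1 were in the second.

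Rag1 and Rag2 lie tail to tail on chromosome 2, Rag1 (chr2:101638252-101649532) on the minus strand and Rag2 (chr2:101624712-101632528) on the plus strand, and each encodes a subunit of the recombinase. Their promoters are shown because each was under a peak in 1 library while the DNA around them was open in all. The windows run from 250 bases before to 50 bases after the start site, 5′ to 3′ on the gene's own strand, from RefSeq on GRCm38.p6, at chr2:101649483-101649782 (minus) and chr2:101624462-101624761 (plus). Capitals mark letters of 5 motifs, each searched on both strands and chosen after the promoters had been seen: the octamer ATGCAAAT, the E-box CAGNTG, the EBF motif CCCNNGGG, the Ikaros motif TGGGAA and the PU.1 motif GAGGAA.
Rag1: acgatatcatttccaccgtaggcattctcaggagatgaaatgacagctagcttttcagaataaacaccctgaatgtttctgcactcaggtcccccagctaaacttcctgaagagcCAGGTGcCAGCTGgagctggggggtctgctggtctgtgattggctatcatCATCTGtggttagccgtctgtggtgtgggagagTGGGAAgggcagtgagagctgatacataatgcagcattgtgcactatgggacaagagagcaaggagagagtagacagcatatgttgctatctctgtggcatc
Rag2: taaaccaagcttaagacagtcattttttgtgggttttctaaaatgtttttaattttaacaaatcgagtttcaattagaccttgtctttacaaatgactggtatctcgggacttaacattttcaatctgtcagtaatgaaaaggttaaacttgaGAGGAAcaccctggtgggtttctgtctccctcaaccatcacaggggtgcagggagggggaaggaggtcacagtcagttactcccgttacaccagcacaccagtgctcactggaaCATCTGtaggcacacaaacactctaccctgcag
No match overlaps another in the windows shown here. The Rag1 window holds 3 E-boxes, the first pair separated by 1 base, and 1 Ikaros motif, while the Rag2 window holds 1 E-box, which lies after the start site, and 1 PU.1 motif. Such matches are common: of 21263 promoters of this length, 48.6% hold an E-box, 24.5% the Ikaros motif and 27.4% the PU.1 motif.

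The peak over the Rag1 start, at chr2:101649435-101649686, was in DTx replicate 2 alone, at percentile 9.44. That at the Rag2 start, within chr2:101624678-101625354, was in DTx replicate 3 at percentile 5.92, where it covered the start, and in untreated replicate 3 at percentile 5.08, where it began 67 bp away. All 3 of these peaks were below percentile 10 of their lists.

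The open DNA of the Rag locus lay away from both promoters. Of its 13 regions, 7 were called in all 6 libraries, 2 in 5 and 1 in a single library, and the median percentile of the 7 was 67.5. The region 8.14 kb before Rag2, inside the neighbouring gene Iftap (chr2:101615566-101616568), stood at percentiles 74.7, 67.4 and 77.7 in DTx libraries, against 68.3, 59.9 and 77.2 in untreated libraries. Another, 25.5 kb before Rag2 (chr2:101598403-101599169), stood at 71.6, 69.5 and 82.8 in DTx libraries, against 57.4, 60.7 and 71.9 in untreated libraries. In both the ranges of the groups overlapped, and all 6 libraries placed the regions in the stronger part of the list.

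A strong region inside Rag2, at chr2:101628433-101629198, covered a start site of Iftap, which overlaps Rag2. Its percentiles were 70.9, 68.8 and 66.3 in DTx libraries, against 45.5, 76.1 and 61.7 in untreated libraries, and the highest and lowest values were both untreated. A peak there cannot be assigned to Rag2 rather than to Iftap.

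Before Rag1, the region nearest to its start that all libraries shared lay 3.12 kb away (chr2:101652651-101653248) and was weak. It stood at percentiles 13.7, 42.3 and 30.3 in DTx libraries, against 16.2, 29.1 and 33.2 in untreated libraries. The next, 15.7 kb before Rag1 (chr2:101665216-101665850), stood at 47.1, 42.2 and 66.1 in DTx libraries, against 39.4, 29.4 and 54.1 in untreated libraries. The groups overlapped at both. Within the body of Rag1, 5.38 kb from its start, a region was called in DTx replicates 2 and 3 (16 and 9.54) and in all untreated libraries (6.83, 5.51 and 31.7), and it was weak wherever it was called.

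One weak region 2.77 kb before Rag2 (chr2:101621479-101621943) lay inside Iftap, 433 bp from a start site of that gene. It was called in all DTx libraries, at 21.3, 35.3 and 39.1, against untreated replicate 3 alone, at 34.1. A nearer and weaker one, 1.31 kb before Rag2, was called in DTx replicate 3 (0.0543) and in untreated replicates 1 and 3 (7.11 and 0.170). On the far side of Rag1, the start of Traf6, which encodes a signalling adaptor of the Toll-like receptor and TNF receptor families, was under a peak at 78.0, 68.7 and 70.0 in DTx libraries, against 75.3, 69.4 and 83.4 in untreated libraries. Inside Traf6 lay a region called in all 6 libraries, between percentiles 13.2 and 42.8, and one called in 5, which untreated replicate 2 lacked.

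**Figure D1:**
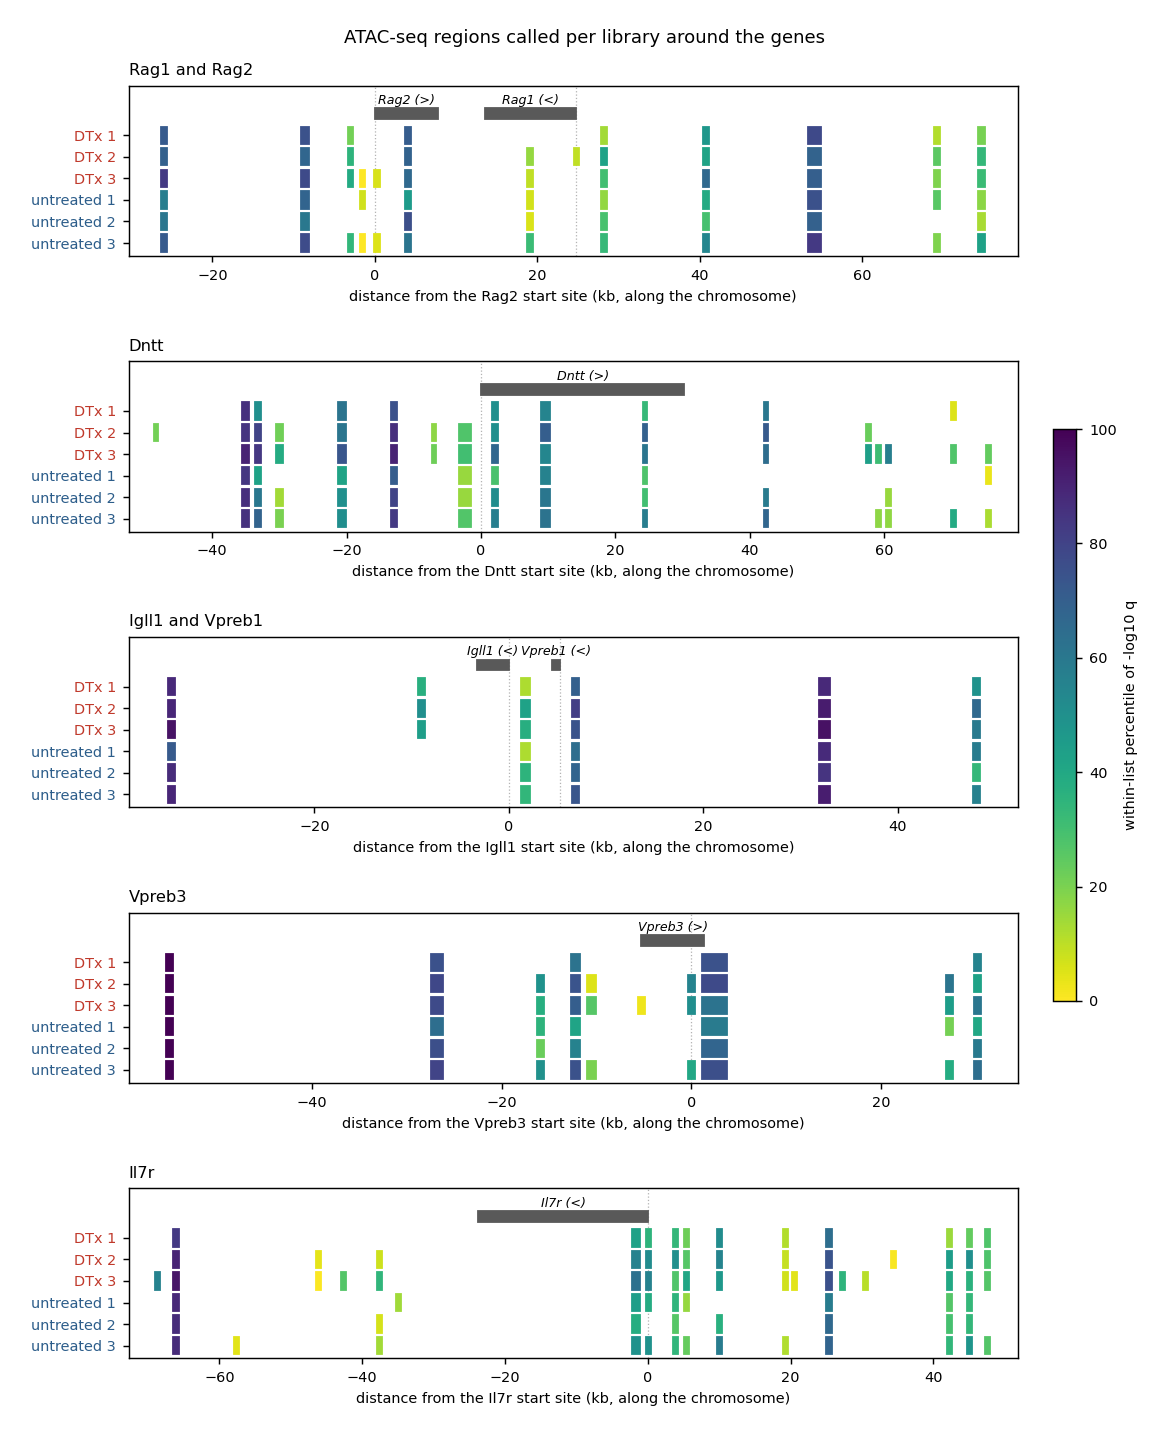
Regions around the genes in each library, with distance in kb along the chromosome from a start site on the x axis and 1 row per library, DTx above untreated. Grey bars are the genes with their direction, dotted lines are start sites, coloured blocks are merged regions under a peak of that library, coloured by within-list percentile, and narrow regions are drawn wider so that they can be seen. Blocks present in all 6 rows flank the Rag1, Rag2, Dntt, Vpreb1 and Igll1 start sites without covering them, while a block covers the Il7r start in 5 rows.

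Dntt (chr19:41029275-41059525, plus strand) encodes TdT and had no peak at either end, while its gene body and upstream DNA held shared regions. Of the 17 regions in or within 50 kb of it, 7 were called in all 6 libraries with a median percentile of 58.5. No motif of the 5 occurred in its promoter window. The percentage of G and C in that window was 42.3, the lowest of the 7 genes, against a median of 56.3 over all promoters.

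The start of Blnk, which encodes an adaptor of pre-B cell receptor signalling, lay 34.5 kb before Dntt and was under a peak at percentile 84.3 to 90.4 in all 6 libraries. The strongest region between the genes lay 12.5 kb before Dntt (chr19:41015921-41016756). It stood at percentiles 75.3, 86.4 and 90.5 in DTx libraries, against 71.1, 79.9 and 83.0 in untreated libraries. A further region, 32.8 kb before Dntt, stood at 50.7, 79.9 and 83.9 in DTx libraries, against 42.5, 60.3 and 68.7 in untreated libraries. The groups overlapped at both. The region nearest to the start, 1.52 kb before it, was absent from the list of DTx replicate 1, stood at 27.7 and 30.3 in DTx replicates 2 and 3, and at 15.5, 15.5 and 27.0 in untreated libraries. It was weaker than the region 12.5 kb away in all 5 libraries that had both.

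Inside Dntt, 3 regions were shared by all 6 libraries. The first, 1.70 kb after the start (chr19:41030974-41031869), stood at 50.7, 50.8 and 66.8 in DTx libraries, against 28.9, 51.3 and 57.4 in untreated libraries. The second, 8.98 kb after the start (chr19:41038259-41039575), stood at 54.7, 70.5 and 54.0 in DTx libraries, against 56.2, 60.8 and 61.9 in untreated libraries. The third, 24.2 kb after the start (chr19:41053442-41053929), stood at 32.9, 69.3 and 61.2 in DTx libraries, against 27.8, 30.4 and 58.0 in untreated libraries. The groups overlapped at all 3, and the spread within a group reached more than 30 percentile points at the last.

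A region 20 kb before Dntt (chr19:41008002-41009234) stood at 61.6, 61.0 and 73.2 in DTx libraries, against 42.1, 50.1 and 50.8 in untreated libraries. These list percentiles did not overlap between the groups, but the lists differ in length, and the share of all regions with such a split was not counted. When the region was ranked among the 30954 regions called in all 6 libraries, the groups overlapped. Its ranks were 45.9, 34.2 and 48.9 in DTx libraries, against 32.7, 34.5 and 19.4 in untreated libraries. With calling mode as a term, the difference was 14.1 ± 7.51 percentile points (SE, n = 3 each), with an adjusted p of 0.97 by limma with Benjamini-Hochberg adjustment. A weak region between this and the start was called in DTx replicates 2 and 3 alone, at 17.2 and 21.9. Beyond the far end of Dntt, a region in Opalin stood at 60.3, 72.0 and 64.6 in DTx libraries, against 58.7 and 67.5 in untreated replicates 2 and 3, and was not in untreated replicate 1. The 5 regions in Tll2, which encodes a metalloprotease, were each called in 2 to 3 libraries.

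Vpreb1 (chr16:16868401-16869255) and Igll1 (chr16:16860671-16863985) are neighbours on the minus strand of chromosome 16, and their products form the surrogate light chain. Of the 6 regions at the locus, 5 were found in every library, with a median percentile of 71.5. Both promoters are shown because no library had a peak over either, while all 6 had one nearby.
Igll1: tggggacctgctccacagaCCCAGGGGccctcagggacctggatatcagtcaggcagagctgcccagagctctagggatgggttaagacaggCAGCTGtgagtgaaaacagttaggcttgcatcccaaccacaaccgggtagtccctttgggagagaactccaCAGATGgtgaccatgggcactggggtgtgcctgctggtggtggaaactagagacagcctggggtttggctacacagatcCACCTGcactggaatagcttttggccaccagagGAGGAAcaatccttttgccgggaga
Vpreb1: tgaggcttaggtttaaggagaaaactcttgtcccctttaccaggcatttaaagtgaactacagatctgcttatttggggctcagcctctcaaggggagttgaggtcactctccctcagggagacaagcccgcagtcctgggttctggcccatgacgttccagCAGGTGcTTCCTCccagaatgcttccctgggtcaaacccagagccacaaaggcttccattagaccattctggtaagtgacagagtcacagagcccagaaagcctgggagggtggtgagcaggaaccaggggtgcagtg
The windows lie at chr16:16863936-16864235 and chr16:16869206-16869505, 5′ to 3′ on the minus strand, from RefSeq on GRCm38.p6, with capitals as above. The Igll1 window holds 3 E-boxes, 1 EBF motif, present in 15.6% of all promoters, and 1 PU.1 motif, which lies after the start site. The Vpreb1 window holds 1 E-box and 1 PU.1 motif. Vpreb2, a near-copy of Vpreb1 on the same chromosome, has an aligned promoter stretch in which 153 of 156 bases are identical. How the authors treated reads that fit both copies is not given in the sources used here, so the absence of a peak at Vpreb1 and at Vpreb2 is uncertain.

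The region next to Vpreb1, 1.24 kb before it (chr16:16870496-16871211), covered the start site of Top3b, which encodes a DNA topoisomerase. It stood at percentiles 69.6, 81.7 and 74.3 in DTx libraries, against 64.1, 68.3 and 73.3 in untreated libraries. The region between the 2 genes, 1.26 kb before Igll1 (chr16:16865243-16866209), stood at 12.3, 42.6 and 37.4 in DTx libraries, against 12.3, 35.3 and 34.1 in untreated libraries. The groups overlapped at both. Farther out, the start of Spag6l, 39.6 kb from the Vpreb1 start, stood at 88.6, 89.1 and 95.3 in DTx libraries, against 72.2, 87.8 and 89.1 in untreated libraries. The start of Ppm1f, which encodes a protein phosphatase, was at 85.0 to 95.5 over all libraries, and a region inside that gene at 33.3 to 66.2.

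A region 8.84 kb past the Igll1 start, beyond the end of the gene (chr16:16854823-16855146), was the only one of the 67 called in all DTx libraries and in no untreated library. It stood at percentiles 36.8, 50.7 and 44.4 in DTx libraries, and it stayed in 3 of 3 DTx lists when each list was held to its 36760 strongest peaks. Its absence from the equal-length untreated lists follows from its absence from the deposited ones. In the deposited lists, 0.705% of all regions were called in 3 DTx libraries and no untreated library, and 0.0242% the other way round. A missing peak is not a measured absence of signal.

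Vpreb3 (chr10:75943024-75949657, plus strand) encodes a protein that binds newly made light and heavy chains in B cell precursors, and it lies apart from the surrogate light chain genes. Its promoter is shown because it holds the only octamer motif among the 7 genes, a motif bound by Oct-1 and Oct-2 that 1.66% of all promoters hold.
Vpreb3: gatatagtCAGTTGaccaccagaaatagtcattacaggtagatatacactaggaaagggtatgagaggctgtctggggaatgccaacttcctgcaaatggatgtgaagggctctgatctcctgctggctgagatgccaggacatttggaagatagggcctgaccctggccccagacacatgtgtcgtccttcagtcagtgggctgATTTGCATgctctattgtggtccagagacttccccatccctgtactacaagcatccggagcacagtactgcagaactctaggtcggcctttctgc
This window lies at chr10:75948050-75948349 on the plus strand in GRCm38.p6. The octamer, read on the opposite strand as ATTTGCAT, begins at position -45 and 1 E-box at position -242, counted from the start site. A match is a description of letters and not of binding.

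The gene-end peak of Vpreb3 was at its far end and not at this promoter. It formed a region of 2652 bp (chr10:75949382-75952033) at percentiles 75, 77.6 and 62.1 in DTx libraries, against 58.8, 67.6 and 76.0 in untreated libraries. The groups overlapped. A separate peak over the start site (chr10:75948152-75948496) was called in DTx replicates 2 and 3, at 55.5 and 51.1, against untreated replicate 3 alone, at 40.6. It was missing from 1 DTx and 2 untreated lists. At the lower end of the annotated gene, DTx replicate 3 alone had a peak, at percentile 2.47.

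Of the 10 regions around Vpreb3, 5 were called in all 6 libraries. The strongest, at the start of Derl3, which encodes a protein of endoplasmic reticulum-associated degradation, lay 54.7 kb before the Vpreb3 start site and was at percentile 99.7 to 99.9 in all 6 libraries. Another covered the start of Smarcb1, which encodes a subunit of the SWI/SNF chromatin remodelling complex, at 75.3, 78.6 and 77.7 in DTx libraries, against 64.2, 75.8 and 79.7 in untreated libraries. A region in Chchd10 stood at 61.9, 74.2 and 70.6 in DTx libraries, against 41.7, 55.9 and 74.8 in untreated libraries, with the highest and the lowest values in untreated libraries. The last of the 5, 29.9 kb past the start site, stood at 55.3, 42.5 and 60.8 in DTx libraries, against 40.4, 59.4 and 64.3 in untreated libraries. The start of Mmp11, which encodes a matrix metalloproteinase, was called in 5 libraries, all but DTx replicate 1, at 23.0 to 49.9.

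By the rule used here for genes whose gene-end percentiles follow those of Vpreb3 most closely over the 6 libraries, Psmb7 and Med13l came first among 10774 genes. Their mean absolute differences from Vpreb3 were 2.12 and 2.47 percentile points. The likeness is that of list percentiles alone.

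Il7r (chr15:9506159-9529941, minus strand), which encodes the alpha chain of the interleukin-7 receptor, was the only one of the 7 genes with a peak over its promoter window in most libraries, and the window is shown for that reason.
Il7r: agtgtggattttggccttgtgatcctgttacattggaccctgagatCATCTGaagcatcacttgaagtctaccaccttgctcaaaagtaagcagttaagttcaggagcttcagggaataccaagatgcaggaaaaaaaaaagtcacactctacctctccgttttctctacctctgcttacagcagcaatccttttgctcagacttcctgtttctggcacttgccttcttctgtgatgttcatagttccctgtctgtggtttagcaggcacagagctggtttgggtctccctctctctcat
The sequence lies at chr15:9529827-9530126 on the minus strand in GRCm38.p6, and 1 E-box is its only match. The peak region (chr15:9529645-9530294) covered the whole window. It stood at percentiles 35.5, 51.7 and 55.9 in DTx libraries, against 38.8, none and 48.8 in untreated libraries. The peak was of middling strength where called, and untreated replicate 2 was the library without it.

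A region just inside the gene, 1.12 kb after the start (chr15:9527715-9528758), was called in all 6 libraries at 42.9, 55.5 and 63.1 in DTx libraries, against 44.3, 37.6 and 49.0 in untreated libraries. The strongest region upstream of the gene, 25 kb before it (chr15:9554913-9555632), stood at 64.1, 73.9 and 75.1 in DTx libraries, against 58.5, 66.0 and 68.0 in untreated libraries. The groups overlapped at both. Between these, a region 9.70 kb before the start stood at 51.8, 54.7 and 46.8 in DTx libraries and at 36.5 and 58.4 in untreated replicates 2 and 3, and was not in untreated replicate 1. The other upstream regions called in at least 5 libraries, at 3.50, 5.29, 41.9 and 44.7 kb before the start, were weaker, with percentiles of 15.1 to 50.3 over the libraries that had them. The strongest region of the whole neighbourhood lay past the far end, in Capsl, at 83.3, 89.9 and 94.5 in DTx libraries, against 88.7, 87.6 and 87.6 in untreated libraries.

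Of the 5 loci, that of Il7r had the lowest share of regions called in every library. Of its 21 regions, 6 were called in all 6 libraries (28.6%) and 8 in a single library, and the median percentile of the 6 was 40.8. At the surrogate light chain locus 83.3% of regions were called in all 6 libraries, at the Rag locus 53.8%, at Vpreb3 50% and at Dntt 41.2%, beside 44.1% of all 70174 regions.

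**Figure D2:**
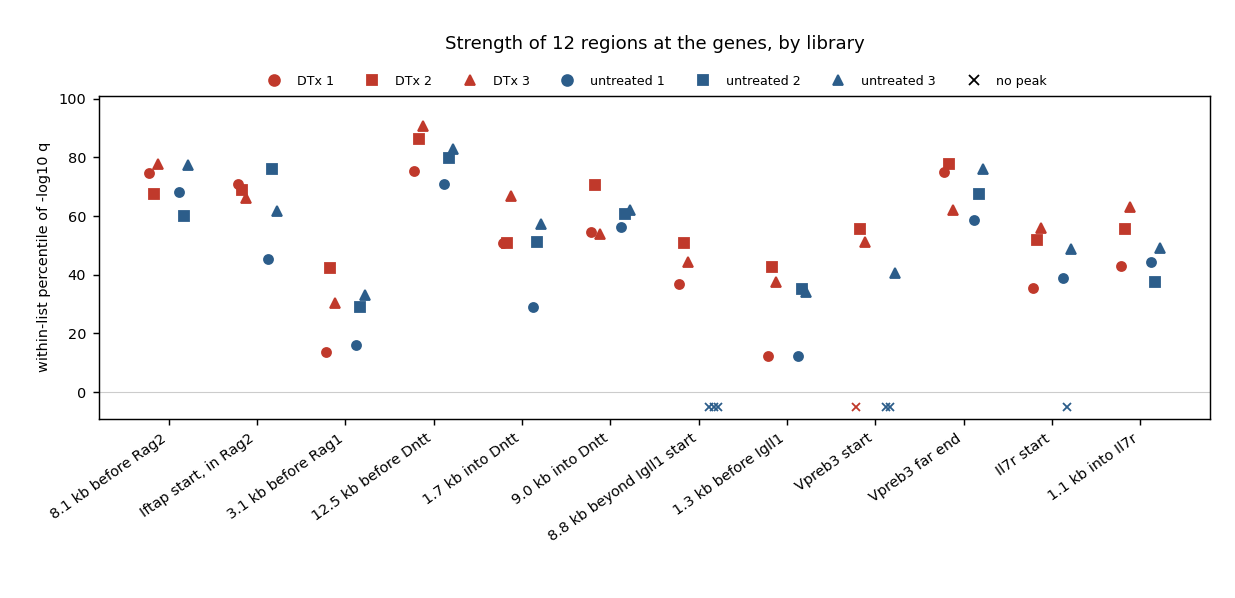
Within-list percentile of −log10 q (y axis) of 12 regions (x axis) in each library, DTx in red left of untreated in blue, with a cross below 0 where a library had no peak. The region beyond Igll1 has crosses in all 3 untreated libraries, and at the other regions called in all 6 libraries the red and blue points overlap.

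Over the 5 loci, 30 of the 67 regions were called in all 6 libraries, 44.8%, with a median percentile of 65.4, beside 44.1% and 67.7 for all regions. Of these 30, 8 (26.7%) lay at a start site, each that of a gene other than the 7, and had a median percentile of 81.3. The other 22 (73.3%) were distal, with a median of 56.6 and a range of 26.2 to 88.2. Over the 29983 shared regions on chromosomes that the promoter table covers, 28.5% lay at a start site, with a median of 83.3, and 71.5% were distal, with a median of 61.7. Regions called in 1 or more DTx libraries and in no untreated library numbered 13, and the reverse 2, beside 12554 and 3802 over all lists.

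The ranks of the 30 shared regions were compared between groups with limma, with calling mode as a term. No region of the 30 passed an adjusted p of 0.05, and 0% of the 30954 regions did in either direction. At an unadjusted p under 0.05, 1 of the 30 passed, beside 4.15% of all. That was the start of Traf6, with a difference of DTx minus untreated of -13.8 ± 6.09 percentile points (SE, n = 3 each, adjusted p = 0.97 by limma with Benjamini-Hochberg adjustment). The difference was positive at 16 of the 30, with a median of 0.962 points. In 1 region, at the start of Derl3, every DTx rank was above every untreated rank, which 3.97% of all shared regions showed.

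At the shared regions nearest to the start sites, the estimates were small beside their errors. The rank differences of DTx minus untreated were 1.76 ± 9.56 points at the Iftap start inside Rag2, -1.61 ± 4.25 points before Rag1, 3.73 ± 7.71 points inside Dntt and 3.58 ± 6.99 points inside Il7r (SE, n = 3 each). Between Vpreb1 and Igll1 the difference was -1.45 ± 4.77 points, at Top3b 2.83 ± 5.97 points and at the far end of Vpreb3 -2.51 ± 7.63 points. None passed the adjusted threshold of limma. The standard errors, of 4.25 to 9.56 points, leave room for differences much larger than the estimates in either direction.

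The number of peaks in each gene and 50 kb on either side was compared in lists of equal length, the 36760 strongest peaks of each library, which takes the length of the lists out of the count. Rag1 had 6, 7 and 5 peaks in DTx libraries, against 9, 6 and 6 in untreated libraries. Rag2, whose window shares most of this DNA, had 6, 7 and 5 peaks in DTx libraries, against 8, 6 and 5 in untreated libraries. Dntt had 8, 8 and 10 peaks in DTx libraries, against 9, 11 and 9 in untreated libraries. The groups overlapped at all 3 genes.

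Vpreb1 and Igll1, whose windows gave the same counts, had 5, 6 and 5 peaks in DTx libraries, against 5, 5 and 4 in untreated libraries. Vpreb3 had 6, 8 and 7 peaks in DTx libraries, against 7, 7 and 8 in untreated libraries. Il7r had 9, 8 and 8 peaks in DTx libraries, against 9, 7 and 6 in untreated libraries. The groups overlapped here too.

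Of the 7 genes, 0 passed an adjusted p of 0.05 by limma on log2(peaks + 0.5), beside 0.477% of 12570 genes called higher and 0.223% called lower in DTx. At an unadjusted p under 0.05, 0 of the 7 passed, beside 3.13% of all genes. The log2 differences ran from -0.19 ± 0.21 at Rag1 to 0.19 ± 0.16 at Il7r (SE, n = 3 each), with adjusted p-values of 0.915 and 0.848 by limma. Over all genes 88 were called, 161 to 278 when any 1 library was left out and 0 in the deposited lists, and the adjusted p of each of the 7 was above 0.05 in all of these fits. Exact permutation tests, two-sided, gave p-values of 0.5 to 1 for the 7 genes, where 0.1 is the smallest that 3 against 3 allows. In the deposited lists, of unequal length, Vpreb1 and Igll1 had 6, 6 and 6 peaks in DTx libraries, against 5, 5 and 5 in untreated libraries (exact permutation p = 0.1), a pattern found at 2.28% of all genes, with the reverse at 0.0183%. Both genes count the same peaks, and the extra one is the single region beyond Igll1 described above.

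**Figure D3:**
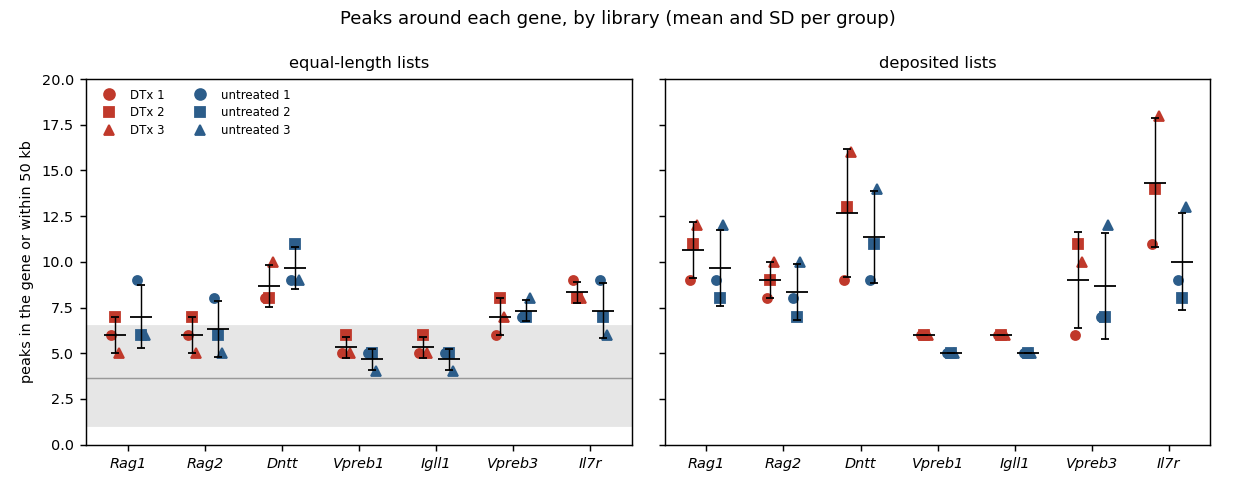
Peaks in each gene or within 50 kb (y axis) in each library (points), with the mean and SD of each group (black), DTx in red left of untreated in blue, in lists held to equal length on the left and as deposited on the right. The grey line and band on the left are the median of all genes, 3.67, and their quartiles, 1 and 6.5. In equal-length lists the groups overlap at every gene, and in the deposited lists at all but Vpreb1 and Igll1.

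The median over all 21887 genes was 3.67 peaks, with quartiles of 1 and 6.5, and of the 7 genes Dntt, Vpreb3 and Il7r averaged above the upper one in both groups. Dntt had more than 90.1% of genes, Il7r more than 83.7%, Vpreb3 more than 79.8%, Rag1 more than 74.9%, Rag2 more than 72.3%, and Vpreb1 and Igll1 more than 61.8%. These counts include the promoters of neighbouring genes.

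The genes that act beside these 7 were mostly open at their ends in every library. Of 11 joining partners, whose products help to cut or repair the ends, 9 had a gene-end peak in every library, at a median percentile of 97.3, and Paxx had none. Of 8 genes of the pre-B cell receptor and its signalling, 7 had one in all 6 (median 75.7), and Vpreb2 had none. Of 8 genes of the interleukin-7 receptor pathway, 7 had one in all 6 (median 81.2). Stat5b had none at either end, although all 8 genes, Stat5b included, had a peak over the promoter window in every library. Of 17 transcription factors that act on these genes, 14 had one in all 6 (median 80.5). Beside these shares stands that of all genes, 49.2%. A peak over the promoter window in all 6 libraries was found at 10 of the 11 joining partners and at 5 of the 8 pre-B cell receptor genes. It was found at 9 of the 17 transcription factors, beside 48.4% of the 17492 genes matched.

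Among the transcription factors, Lef1, a factor of progenitor B cells and T cells, had a gene-end peak in 0 DTx and 2 untreated libraries. The share of all genes with such a split was not counted, so the split of Lef1 is not read as a group difference. Ikzf1 and Myb, and Xrcc6 of the joining partners, were each called in 5 of 6 libraries and are named here after their values were seen. No gene of these 4 lists passed an adjusted p of 0.05 by limma on neighbourhood peaks, in which 8, 7, 8 and 17 of their genes were tested.

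**Figure D4:**
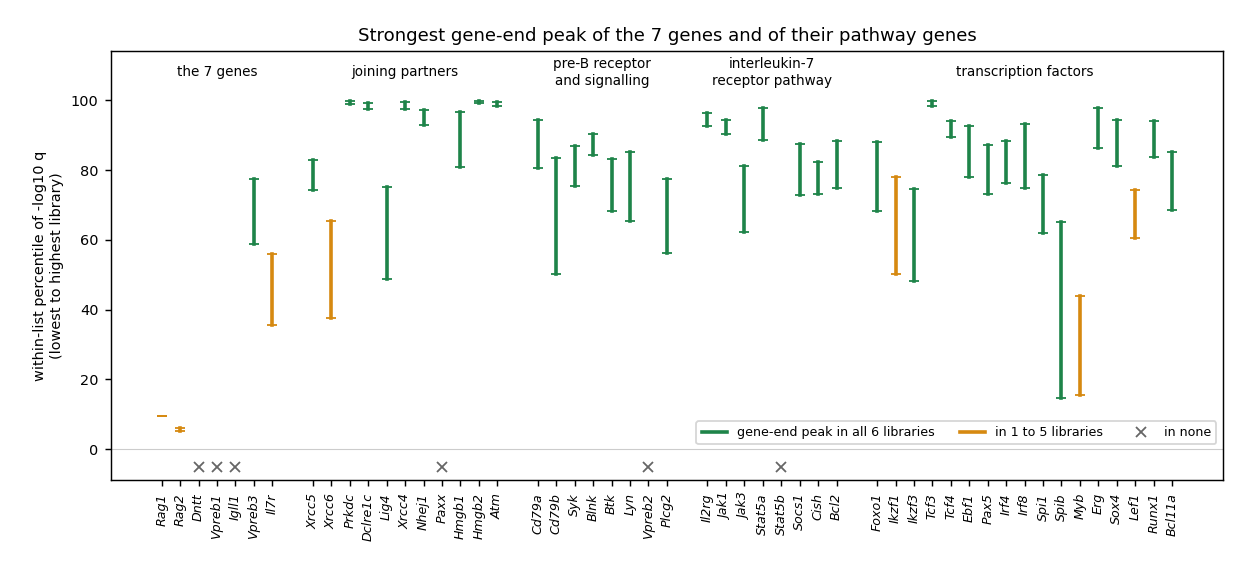
Within-list percentile of −log10 q (y axis) of the strongest gene-end peak of each of the 7 genes and of the genes of the 4 lists (x axis), as a bar between the lowest and the highest library that had one, green for a peak in all 6 libraries, orange for 1 to 5, and a cross for none. Of the 7 genes, Vpreb3 alone is green and Dntt, Vpreb1 and Igll1 carry crosses, while the lists are mostly green and high.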

How the data were processed

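ATAC-seq, in which the Tn5 transposase inserts adapters into open DNA, was run on 6 libraries. The submitters' processing notes name Trim Galore (0.4.3), Bowtie2 (2.3.2), MACS2 (2.1.1) and the mm10 build. The treatment of duplicates, of the Tn5 offset and of reads with several matches is not given in the sources used here, and the depth is unknown. The authors deposited 1 peak list per library, called separately, with a pileup (coverage signal) and a fold enrichment (ratio), per the file headers. The −log10 p and −log10 q columns of the deposited lists have damaged headers, and their order and values identified them. These scores are the authors' own for each peak.

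Mitochondrial peaks (2 per list) were dropped, and the 6 lists were merged into regions by an overlap of at least 1 bp. Gene positions came from RefSeq (GRCm38.p6, the same build as mm10), and promoter windows from RefSeq sequences, matched for all 7 genes. A peak counted toward a neighbourhood by its midpoint. Neighbourhood peaks in lists held to 36760 peaks entered a fit by limma (version 3.58.1, R 4.3.3, with the trend and robust settings) of log2(peaks + 0.5), for genes averaging 3 peaks or more. Percentile ranks over the regions in all 6 lists had calling mode as a term. Both were adjusted by Benjamini-Hochberg over every feature fitted, with a threshold of 0.05, and were tested on simulated data. The simulated neighbourhood counts were given a minimum spread, so they cannot speak to calls at genes with almost none, such as Ptprc. Python 3.11.15 ran the rest. Genes are named by these rules: the 7 genes, with each region in at least 5 lists or within 1 kb of a gene end; genes of 4 lists (joining partners, pre-B cell receptor, interleukin-7 receptor pathway, transcription factors) with no gene-end peak or differing by at least 2 libraries between groups; cell type markers; and the 2 genes most like Vpreb3. A few regions called in fewer lists are also named, outside these rules, and most of them were called in more DTx than untreated libraries. The genes, lists and tests were chosen with earlier results of these data known. Alternatives covered the window, filter, pseudocount, list length, significance minimum, calling mode, ranking score, a replicate block and leaving out each library. The promoter window in place of gene ends was added after seeing the data. The values of 1 marker gene are not reported here.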

Additional observations from a re-analysis of the deposited data

How the results depend on the processing

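The numbers of genes called by limma on neighbourhood peaks (88, with 60 higher and 28 lower in DTx) were unstable: 0 in the deposited lists (358 at an unadjusted p under 0.05), 49 with a 10 kb and 0 with a 100 kb window, 162 without a filter, 2 with a floor on the variance, and 161 to 278 when 1 library was left out. None of the 7 genes tested passed the adjusted threshold in these fits, of which the 10 kb fit tested 2 of the 7; at an unadjusted p under 0.05, Il7r passed without untreated replicate 1 (0.0345). The difference in genes with a gene-end peak (0.667) was 1.5 within broad-mode and -1 within narrow-mode lists, and 0.167 to 1.17 when 1 library was left out. Differences in neighbourhood peaks changed sign at Rag1 (1 in the deposited lists, 1.33 at a −log10 q of at least 5), Rag2 (0.667, 1, 0.333 with 10 kb, 1 in narrow mode, -1 to 0.5 without 1 library), Dntt (1.33 and 1), Vpreb1 (-0.333 with 10 kb) and Vpreb3 (0.333 in the deposited lists and with 10 or 100 kb, 0.667 at the minimum, 0.5 in broad mode, -0.833 to 0.167 without 1 library). By pileup, the rank difference was 1.09 between Vpreb1 and Igll1 and 0.531 at Vpreb3. Without 1 library, ranges crossed 0 between Vpreb1 and Igll1 (-5.75 to 2.27), at Vpreb3 (-8.87 to 6.78), in Rag2 (-10.1 to 13.9), before Rag1 (-4.19 to 0.716), in Dntt (-0.767 to 8.69) and at Top3b (-1.44 to 7.72). The cause was not tested. With a replicate block, 87 genes were called. The rank fit with both a replicate block and calling mode called 5 shared regions (4 higher, 1 lower in DTx), against 0 with calling mode alone. At an unadjusted p under 0.05 by limma, the block gave 842 genes against 393 without it. Same-numbered libraries deviated together by correlations of -0.0751 to 0.187 for ranks and 0.0502 to 0.438 for neighbourhoods. Other-numbered libraries gave -0.350 to 0.357 for ranks and -0.394 to 0.202 for neighbourhoods. Whether the numbers pair the samples cannot be told from these values, and the labels do not say. Without read totals, weak or missing peaks cannot be told apart from low depth.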
